A study of Mus musculus with 8 samples.

Results

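The unfolded protein response of the endoplasmic reticulum (ER) was read from 36 genes in RNA sequencing of sorted mouse lung cells. A row of the count table belonged to the set where its Ensembl identifier mapped to 1 of 36 chosen symbols. All 36 symbols were found among the 43432 identifiers, and all 36 passed the low-count filter that left 14906 genes for testing. The set holds 3 stress sensors, the regulators Xbp1 and Crebrf, 12 chaperones and co-chaperones, 3 disulfide isomerases, 8 genes of ER-associated degradation, 2 translocon subunits and 6 genes of the PERK and ATF4 arm. The 23 chaperone, isomerase and degradation genes are called the folding and degradation genes here, and they were set against the 6 PERK and ATF4 genes.

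All cells were EpCAM+CD45-, an epithelial gate that leaves out leukocytes, and came from lungs of C57BL/6J mice aged 14 weeks. Homozygous ChiaRed mice (C/C, n = 2) and heterozygous ChiaRed mice (C/+, n = 3) gave the ChiaRed+ cells of this gate, and wild-type mice (WT, n = 3) gave the gate whole. ChiaRed marks cells that express Chia1, the gene of acidic mammalian chitinase (AMCase), and how the allele was built is not given in the sources used here. Chia1 stood at 1.45 and 0.365 CPM in the C/C libraries, at 303, 341 and 223 CPM in the C/+ libraries and at 267, 454 and 425 CPM in the WT libraries, so C/C cells differed from C/+ cells both in ChiaRed copies and in Chia1 itself. The C/C and C/+ libraries differed from WT in sorting as well as in genotype, and these cannot be told apart. The labels do not say that the libraries of a group came from separate animals, so a p-value here speaks of the spread between these libraries only. Sex, read from Xist and Y-linked counts, differed within C/+ and within WT, so neither group came from 1 animal alone. Both C/C libraries were female. Part of the spread, and in C/C all of it, may be technical.

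The unfolded protein response couples the protein load of the ER to transcription through a trio of membrane sensors. IRE1 (gene Ern1) splices the mRNA of the transcription factor XBP1, ATF6 is cut in the Golgi to release a transcription factor, and both raise chaperones and the degradation machinery of the ER. PERK (gene Eif2ak3) phosphorylates the initiation factor eIF2 alpha, which lowers general translation and favours translation of ATF4, a transcription factor for amino acid supply and for the stress genes Ddit3, Trib3, Chac1 and Ppp1r15a. Secretory epithelium such as alveolar type 2 cells, which make large amounts of surfactant proteins, relies on this response. Counts per gene do not tell spliced from unspliced Xbp1, nor the activity of ATF4 or of a sensor.

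Promoters of many members carry short sequences through which the arms are known to act, and the sites are shown because they fell unequally between the arms. Each arm was drawn up from genes already known to belong to it, so this unequal split is not separate evidence about the arms. RefSeq windows of GRCm38.p6, from 250 bases before to 50 bases after the start, were at hand for 30 members; Atf6, Hyou1, Hspa13, Manf, Derl1 and Sec61a1 had none. Both strands were searched for the ER stress element ERSE (CCAAT, any 9 bases, CCACG), for ERSE-II (ATTGG, any 1 base, CCACG), for the XBP1-type core TGACGTGG and for the core of the composite element bound by ATF4 (TGATG, any 1 base, AA). ERSE lay in 9 members and in 39 of 32851 windows (0.119%), and each of the 9 was a folding or degradation gene (9 of 19 with a window, against 0 of 6 PERK and ATF4 genes). ERSE-II lay in 2 members and in 12 windows (0.0365%). The ATF4 core lay in 4 members and in 1304 windows (3.97%), and 3 of the 4 were among the 6 PERK and ATF4 genes. The TGACGTGG core lay in 222 windows (0.676%) and in 0 members. No sites overlapped within a member window, and a match is a description of letters, not of binding. The sites are given 5′ to 3′ on the strand named, with the fixed letters of the motif in capitals.
Hspa5 ERSE, chr2:34772025-34772043, plus strand: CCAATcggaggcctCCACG
Hsp90b1 ERSE, chr10:86705638-86705656, minus strand: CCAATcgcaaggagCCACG
Hsp90b1 ERSE, chr10:86705533-86705551, plus strand: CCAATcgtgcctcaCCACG
Dnajc3 ERSE, chr14:118937827-118937845, plus strand: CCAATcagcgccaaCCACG
Calr ERSE, chr8:84847075-84847093, plus strand: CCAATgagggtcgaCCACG
Canx ERSE, chr11:50325800-50325818, minus strand: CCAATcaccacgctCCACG
Creld2 ERSE, chr15:88819520-88819538, minus strand: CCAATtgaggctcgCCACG
Pdia6 ERSE, chr12:17266491-17266509, plus strand: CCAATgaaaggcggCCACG
Syvn1 ERSE, chr19:6046532-6046550, plus strand: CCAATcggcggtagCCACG
Derl3 ERSE, chr10:75893242-75893260, minus strand: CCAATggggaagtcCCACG
Dnajb11 ERSE-II, chr16:22857852-22857862, plus strand: ATTGGcCCACG
Herpud1 ERSE-II, chr8:94386377-94386387, plus strand: ATTGGgCCACG
Herpud1 ATF4 core, chr8:94386312-94386329, minus strand: cgggcTGATGcAAcccgc
Trib3 ATF4 core, chr2:152344034-152344051, plus strand: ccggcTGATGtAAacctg
Chac1 ATF4 core, chr2:119351044-119351061, minus strand: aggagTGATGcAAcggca
Asns ATF4 core, chr6:7693220-7693237, minus strand: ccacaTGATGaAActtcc

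The windows of Herpud1, Dnajb9 and Ppp1r15a follow because these had the largest fold changes among the called members with a window, together with those of Hspa5, the usual readout of ER stress, and Ddit3, the usual readout of PERK signalling. Each is written in the direction of its gene, with matches to the searched motifs in capitals. Herpud1 (chr8:94386179-94386478, plus strand) holds the ATF4 core, read on the opposite strand, and ERSE-II downstream of it. Hspa5 (chr2:34771840-34772139, plus strand) holds 1 ERSE. Dnajb9 (chr12:44210019-44210318, minus strand), Ppp1r15a (chr7:45526219-45526518, minus strand) and Ddit3 (chr10:127290543-127290842, plus strand) hold none of the searched letters in these windows.
Herpud1: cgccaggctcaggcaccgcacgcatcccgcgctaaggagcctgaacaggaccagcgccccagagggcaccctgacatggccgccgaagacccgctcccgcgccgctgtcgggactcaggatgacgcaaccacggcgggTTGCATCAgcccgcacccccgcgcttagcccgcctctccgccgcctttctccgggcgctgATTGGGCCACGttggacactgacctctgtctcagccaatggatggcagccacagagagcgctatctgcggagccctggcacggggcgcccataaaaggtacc
Dnajb9: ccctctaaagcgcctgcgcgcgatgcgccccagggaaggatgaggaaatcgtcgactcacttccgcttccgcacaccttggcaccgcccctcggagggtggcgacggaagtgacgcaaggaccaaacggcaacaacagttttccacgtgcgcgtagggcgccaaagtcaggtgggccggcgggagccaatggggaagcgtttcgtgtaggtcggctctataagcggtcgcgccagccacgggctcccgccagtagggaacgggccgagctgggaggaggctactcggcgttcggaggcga
Ppp1r15a: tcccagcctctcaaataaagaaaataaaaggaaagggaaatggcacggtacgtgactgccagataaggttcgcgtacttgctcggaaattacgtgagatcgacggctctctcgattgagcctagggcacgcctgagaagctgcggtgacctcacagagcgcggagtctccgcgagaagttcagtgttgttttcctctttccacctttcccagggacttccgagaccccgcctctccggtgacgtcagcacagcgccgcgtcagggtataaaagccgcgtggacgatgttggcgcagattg
Hspa5: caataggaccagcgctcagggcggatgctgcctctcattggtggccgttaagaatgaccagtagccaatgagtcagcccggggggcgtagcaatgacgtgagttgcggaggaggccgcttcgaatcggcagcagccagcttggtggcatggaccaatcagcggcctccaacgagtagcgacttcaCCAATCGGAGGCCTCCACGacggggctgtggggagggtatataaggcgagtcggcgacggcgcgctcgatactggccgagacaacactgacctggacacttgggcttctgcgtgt
Ddit3: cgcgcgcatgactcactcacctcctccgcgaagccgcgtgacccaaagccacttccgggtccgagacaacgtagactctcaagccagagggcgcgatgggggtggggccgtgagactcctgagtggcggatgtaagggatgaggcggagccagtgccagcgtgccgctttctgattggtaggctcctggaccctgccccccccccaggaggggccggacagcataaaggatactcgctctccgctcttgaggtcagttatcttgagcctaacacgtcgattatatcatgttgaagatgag

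Libraries held 17057216 to 52319957 counts, so every member rested on at least 11 counts in each library. Counting error weighs most on Chac1 and Derl3, the members with the fewest counts. Levels are library-scaled counts (CPM) adjusted by TMM factors, and changes are log2 fold changes (log2FC) from edgeR with their standard errors (SE). A gene was called at a Benjamini-Hochberg adjusted p under 0.05 over all 14906 genes. At an unadjusted p under 0.05 there were 3116 genes for C/C against C/+, 3299 for C/C against WT and 3000 for C/+ against WT. DESeq2, run beside edgeR, called 10.8%, 9.9% and 8.47% of all genes in the same order. Alveolar type 2 transcripts dominated each library: Sftpc, the surfactant protein C gene, averaged 165119 CPM in C/C, 142305 CPM in C/+ and 121031 CPM in WT. Ptprc, which encodes CD45, averaged 0.217 CPM in C/C, 0.762 CPM in C/+ and 0.820 CPM in WT. In sorted bulk samples, fewer cells of a type and less RNA per cell cannot be told apart.

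Between C/C and C/+ cells, both sorted as ChiaRed+, 9 of the 36 members were called and all 9 were higher in C/C. They were Herpud1, Dnajb9, Ppp1r15a, Creld2, Hspa5, Hyou1, Manf, Xbp1 and Syvn1, with folds of 1.37 to 2.44. This is 25% of the members, against 7.08% of all tested genes called in either direction, 1.75% called higher and 5.33% called lower. The log2FC was positive for 33 of 36 members, with a median of 0.29, against -0.01 over all tested genes. Both C/C libraries lay above all 3 C/+ libraries for 26 members and below them for 1, Crebrf, against 18.1% and 20.2% of all tested genes (38.3% without overlap in either direction).

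Against the whole WT gate, 8 of the 36 members were called in C/C and all 8 were higher: Herpud1, Ppp1r15a, Sdf2l1, Dnajb9, Creld2, Manf, Sec61b and Ddit3. This is 22.2% of the members, against 2.98% of all genes called in either direction, 1.62% called higher and 1.36% called lower. The log2FC was positive for 28 and negative for 8 members, with a median of 0.26, against -0.03 over all genes. Both C/C libraries lay above all WT libraries for 22 members and below them for 5, against 20.8% and 22.6% of all genes (43.3% in either direction). The 2 comparisons share the C/C libraries, so their calls are not separate evidence.

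Between C/+ and WT, 0 of 36 members were called by edgeR, against 3.92% of all tested genes (3.42% called higher and 0.503% called lower). At an unadjusted p under 0.05 there were 9 of the 36 members, against 3000 of all 14906 tested genes. DESeq2 called 4 of the 36, against 8.47% of all genes: Edem1, Ern1 and Hyou1 lower in C/+ and Sec61b higher. With sex as a covariate edgeR called 6 of the 36, against 11.4% of all genes in that fit. Atf6, Edem1, Ern1, Hyou1 and Syvn1 were lower in C/+ and Sec61b higher. The log2FC was positive for 16 and negative for 20 members, with a median of -0.05, against 0.00 over all genes. All C/+ libraries lay below all WT libraries for 9 members and above them for 2, against 10.7% and 14.1% of all genes (24.8% in either direction).

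The counts of calls rested on both C/C libraries. Between C/C and C/+, 1 member was called without C/C 1 (Herpud1) and 2 without C/C 2 (Herpud1 and Dnajb9). Between C/C and WT, Herpud1 alone was called without C/C 1, without C/C 2 or without WT 2, and 4 members were called without C/+ 2, without WT 1 or without WT 3. No called member's fold change changed sign in these fits.

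**Figure D1:**
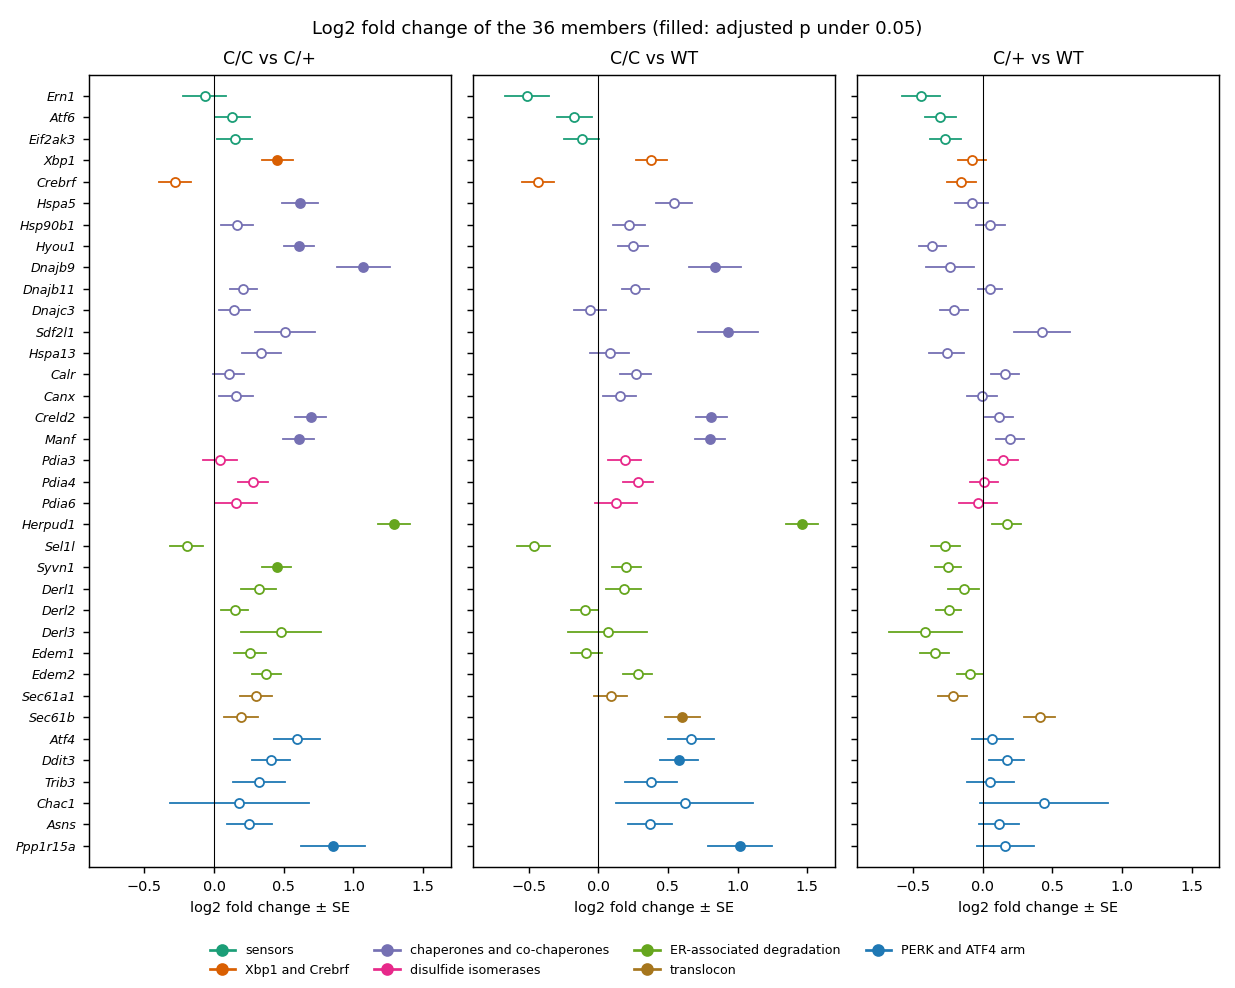
Log2 fold change (x axis, points) with its standard error (bars) of each of the 36 members (rows, coloured by role) for C/C over C/+ (left), C/C over WT (middle) and C/+ over WT (right); filled points have an edgeR adjusted p under 0.05. Filled points number 9, 8 and 0 in the 3 panels, and Herpud1 lies farthest right in the first pair, at 1.29 and 1.46.

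The sensors themselves were not called by the main edgeR fit in any comparison. DESeq2 called Ern1 lower than WT in both C/C and C/+. Sex, as read from Xist and Y-linked counts, was unbalanced between the groups: both C/C libraries, 2 of 3 C/+ libraries and 1 of 3 WT libraries were female. With sex as a covariate, edgeR called Ern1 lower in C/C against WT, and Ern1 and Atf6 lower in C/+ against WT. Without the low-count filter edgeR also called Ern1 lower than WT in both. Ern1, which encodes IRE1, stood at 48.5 and 51.7 CPM in C/C, at 46.0, 51.2 and 60.6 CPM in C/+ and at 84.6, 68.7 and 60.6 CPM in WT. The C/C libraries lay within the C/+ range (log2FC -0.07, SE 0.16, edgeR adjusted p = 0.866) and below every WT library (log2FC -0.51, SE 0.16, adjusted p = 0.0953). Against WT, Ern1 in C/+ had a log2FC of -0.44 (SE 0.14, adjusted p = 0.109), and 1 C/+ and 1 WT library met at 60.6 CPM. Atf6 stood at 61.1 and 61.3 CPM in C/C, at 46.8, 60.5 and 60.6 CPM in C/+ and at 71.2, 64.8 and 70.6 CPM in WT. The C/C libraries thus lay just above C/+ (log2FC 0.13, adjusted p = 0.622) and below all WT libraries (log2FC -0.17, adjusted p = 0.459). Eif2ak3, which encodes PERK, ranged from 32.6 to 35.8 CPM in C/C, from 29.6 to 33.3 CPM in C/+ and from 34.3 to 42.4 CPM in WT. Its C/C libraries overlapped both other groups (adjusted p = 0.577 against C/+ and 0.629 against WT). In all 3 sensors the C/+ libraries lay below the WT libraries, and the main edgeR fit called none of these differences (3 of 3 at an unadjusted p under 0.05).

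Xbp1, the transcription factor gene downstream of IRE1 and ATF6, rose in C/C against C/+. It stood at 281 and 260.1 CPM in C/C, at 199, 213 and 181 CPM in C/+ and at 209.6, 192 and 223 CPM in WT. Both C/C libraries lay above the other 6. The log2FC was 0.45 against C/+ (SE 0.11, adjusted p = 0.0347) and 0.38 against WT (SE 0.11, adjusted p = 0.0868), the second called by DESeq2 but not by edgeR. The call against C/+ was lost without either C/C library and without any 1 of the C/+ libraries, with a log2FC of 0.40 to 0.51 and an adjusted p of up to 0.291 over the alternatives. Crebrf, which encodes a nuclear regulator that promotes degradation of the ER stress factor CREB3, ran the other way at 39.7 and 39.3 CPM in C/C, 43.1, 47.3 and 53.9 CPM in C/+ and 49.8, 54.6 and 55.7 CPM in WT. Both C/C libraries were the lowest of the 8. The main edgeR fit called neither difference (log2FC -0.28, adjusted p = 0.200 against C/+ and log2FC -0.43, adjusted p = 0.072 against WT). DESeq2 called the difference against WT, and so did edgeR without the low-count filter or without C/+ 3.

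Among the 12 chaperones and co-chaperones, 5 rose in C/C against C/+ and 7 were not called. The log2FC was positive in all 12 (median 0.42), and C/C libraries lay above all C/+ libraries in 11. Hspa5 encodes BiP, the abundant ER Hsp70 that binds unfolded proteins and holds the sensors inactive. It stood at 731 and 611 CPM in C/C, at 446, 473 and 391 CPM in C/+ and at 441, 435 and 507 CPM in WT. Each C/C library was above every other library, by a log2FC of 0.62 over C/+ (1.54-fold, SE 0.13, adjusted p = 0.0163) and of 0.54 over WT (SE 0.13, adjusted p = 0.0521), the second not called by edgeR but called by DESeq2, and by edgeR with sex as a covariate, without the low-count filter or with one of 1 CPM. Hyou1, an ER Hsp70 relative that exchanges nucleotide on BiP, stood at 150.4 and 147 CPM in C/C, 94.6, 106 and 91.3 CPM in C/+ and 135, 115 and 125 CPM in WT. Its 3 groups did not overlap, with C/+ lowest. The rise over C/+ was 1.52-fold (log2FC 0.61, SE 0.11, adjusted p = 0.00702), while C/C differed from WT by a log2FC of 0.25 (adjusted p = 0.208) and C/+ from WT by -0.36 (SE 0.10, adjusted p = 0.0687).

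Dnajb9 (ERdj4), a BiP co-chaperone that keeps IRE1 inactive, had the largest rise among the chaperones. Its level was 108 and 91.6 CPM in C/C, 59.0, 35.1 and 48.2 CPM in C/+ and 52.5, 51.7 and 63.4 CPM in WT. The C/C libraries were clear of both other groups, which overlapped each other. The rise was 2.1-fold over C/+ (log2FC 1.07, SE 0.19, adjusted p = 0.00689) and 1.79-fold over WT (log2FC 0.84, SE 0.19, adjusted p = 0.0442). Without C/C 1 the first call was lost (adjusted p = 0.0923), and the second was lost without either C/C library or any 1 WT library (adjusted p up to 0.315).

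Creld2 and Manf, a pair of small ER stress proteins that can also be secreted, rose in C/C against both other groups. Creld2 stood at 68.6 and 70.8 CPM in C/C, 44.6, 42.9 and 41.7 CPM in C/+ and 45.0, 36.4 and 37.6 CPM in WT. Manf, which binds BiP, stood at 119 and 114 CPM in C/C, 75.0, 68.8 and 86.5 CPM in C/+ and 66, 65.6 and 69.1 CPM in WT. In both genes the 2 C/C libraries were the highest of the 8. Creld2 was 1.62-fold higher than in C/+ (log2FC 0.69, SE 0.11, adjusted p = 0.00507) and 1.76-fold higher than in WT (log2FC 0.81, SE 0.11, adjusted p = 0.00858). Manf was 1.52-fold higher than in C/+ (log2FC 0.61, SE 0.11, adjusted p = 0.00755) and 1.74-fold higher than in WT (log2FC 0.80, SE 0.11, adjusted p = 0.00829). Each of these 4 calls was lost without either C/C library, and the pair against WT also without WT 2, with adjusted p of up to 0.117. Exons of Manf overlap those of Dcaf1 on the other strand over 146 bases (4.14% of its exon length), and the strand setting of the counting is not given in the sources used here.

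Sdf2l1, a partner of the BiP co-chaperone Dnajb11, was called against WT alone. It stood at 12.3 and 11.2 CPM in C/C, 8.81, 9.80 and 6.12 CPM in C/+ and 6.05, 5.27 and 7.07 CPM in WT, with C/C above both other groups. Its log2FC was 0.93 over WT (1.91-fold, SE 0.22, adjusted p = 0.0485) and 0.51 over C/+ (SE 0.22, adjusted p = 0.213). Its call against WT was kept in 1 of 8 fits that left out a library (adjusted p up to 0.315).

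The other 6 chaperones were not called in any comparison, by edgeR or DESeq2. Hsp90b1 (GRP94), the ER Hsp90, stood at 616 and 618 CPM in C/C, 518, 545 and 590.0 CPM in C/+ and 505, 500.2 and 584 CPM in WT. Its C/C libraries were the highest of the 8, by a log2FC of 0.16 over C/+ (SE 0.11, adjusted p = 0.470) and 0.22 over WT (adjusted p = 0.282). The lectin chaperone gene Calr stood at 435 and 425 CPM in C/C, 401, 412 and 385 CPM in C/+ and 322, 350.4 and 397 CPM in WT, again with C/C highest (log2FC 0.11, adjusted p = 0.667 over C/+; 0.27, adjusted p = 0.191 over WT). Canx, its membrane-bound relative, spanned 291 to 338 CPM in C/C, 278 to 289.6 CPM in C/+ and 257 to 320.1 CPM in WT. Dnajb11 (ERdj3) stood at 87.2 and 87.1 CPM in C/C, 69.6 to 80.7 CPM in C/+ and 70.5 to 74.8 CPM in WT (log2FC 0.21, adjusted p = 0.244 over C/+; 0.26, adjusted p = 0.141 over WT). Dnajc3 (p58IPK), an inhibitor of PERK, and Hspa13, a small Hsp70 relative, overlapped between C/C and WT, with log2FC of -0.06 and 0.08.

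**Figure D2:**
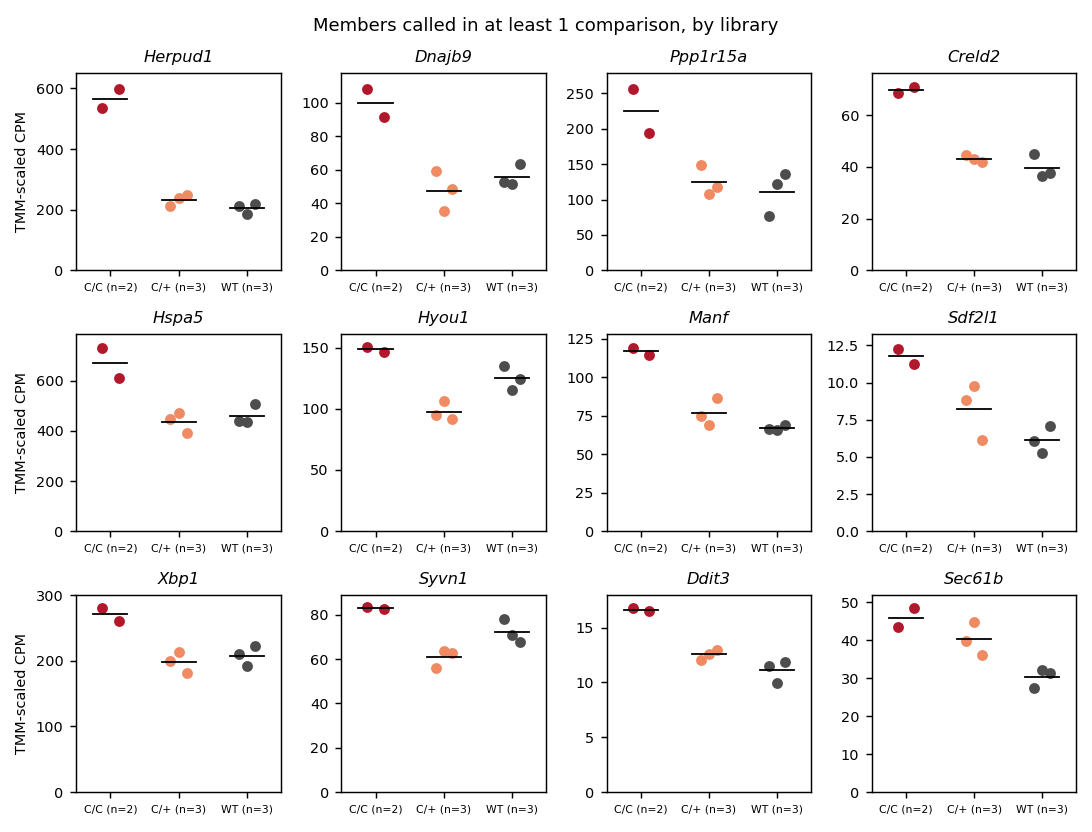
TMM-scaled CPM (y axis, from 0) of the 12 members called in at least 1 comparison, by group (x axis: C/C, C/+, WT); each point is a library and each line the group mean. The C/C points lie above all C/+ and WT points in every panel but Sec61b, where 1 C/+ library at 44.7 CPM lies between the C/C libraries at 43.5 and 48.3 CPM.

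None of the 3 disulfide isomerases, which form and shuffle disulfide bonds, was called by edgeR or DESeq2 in any comparison, and 1, Pdia4, had an unadjusted p under 0.05 over C/+ and over WT. Pdia4 stood at 124 and 124 CPM in C/C, 93.8, 101 and 112 CPM in C/+ and 105, 92.0 and 107 CPM in WT, and C/C lay above both groups (log2FC 0.28, SE 0.11, adjusted p = 0.172 over C/+; 0.29, adjusted p = 0.154 over WT). Pdia3 ranged from 415 to 449 CPM in C/C, from 401 to 454 CPM in C/+ and from 339 to 420.3 CPM in WT. Pdia6 ranged from 338 to 412 CPM in C/C, from 296 to 365 CPM in C/+ and from 287 to 382 CPM in WT. C/C overlapped both other groups in these 2 genes, with log2FC of 0.04 and 0.16 over C/+.

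Of the 8 genes of ER-associated degradation, 2 rose in C/C against C/+, Herpud1 and Syvn1. Herpud1 encodes a membrane protein of the ubiquitin ligase complex that moves misfolded proteins out of the ER. It stood at 535 and 599 CPM in C/C, at 212, 237 and 247 CPM in C/+ and at 211, 187 and 219 CPM in WT. The lowest C/C library lay far above the highest of the other 6, and C/+ and WT overlapped. Herpud1 (ENSMUSG00000031770, chr8:94386438-94395377, plus strand of GRCm38) was 2.44-fold higher than in C/+ (log2FC 1.29, SE 0.12, adjusted p = 0.0006) and 2.75-fold higher than in WT (log2FC 1.46, SE 0.12, adjusted p = 0.000261). It ranked 9 by p among all 14906 genes between C/C and C/+. Herpud1 was called in each of the 15 alternative fits for both comparisons, with log2FC of 1.21 to 1.37 over C/+ and 1.38 to 1.54 over WT. Of all members, it is also the 1 whose promoter window holds both ERSE-II and the ATF4 core.

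Syvn1 (HRD1), the ubiquitin ligase at the core of this complex, stood at 83.3 and 82.6 CPM in C/C, 56.0, 63.6 and 62.6 CPM in C/+ and 78.1, 71.0 and 67.5 CPM in WT. The groups did not overlap, with C/+ lowest. The rise over C/+ was 1.37-fold (log2FC 0.45, SE 0.10, adjusted p = 0.0258), the log2FC over WT was 0.20 (adjusted p = 0.284), and that of C/+ against WT was -0.25 (adjusted p = 0.168). The call was lost without C/C 1, C/C 2, C/+ 1 or C/+ 2 (adjusted p up to 0.191), and 91 bases of its exons overlap Mrpl49 on the other strand. Sel1l, the adaptor that stabilises Syvn1, ran opposite to its partner, at 149.8 and 165 CPM in C/C, 163, 175 and 204 CPM in C/+ and 228, 211 and 212 CPM in WT. C/C overlapped C/+ (log2FC -0.20, adjusted p = 0.393) and lay below all WT libraries (log2FC -0.46, SE 0.12, adjusted p = 0.0644). The main edgeR fit called neither difference, and DESeq2 called the second. So did edgeR with sex as a covariate, without the low-count filter, with the compared groups alone or without C/+ 3.

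The other degradation genes were not called by the main edgeR fit, while DESeq2 called Edem2 over C/+ and Edem1 in C/+ against WT. Among the other edgeR fits, Edem2 was called over C/+ without C/+ 3 or without WT 1. Edem1 was called in C/+ against WT with sex as a covariate. Edem2, which trims mannose from misfolded glycoproteins, stood at 68.8 and 67.6 CPM in C/C, 48.6, 53.1 and 56.2 CPM in C/+ and 52, 57.8 and 58.4 CPM in WT. C/C was above both groups, by a log2FC of 0.37 over C/+ (SE 0.10, adjusted p = 0.0584) and 0.28 over WT (adjusted p = 0.144). Edem1, of the same family, stood at 77.9 and 69.1 CPM in C/C, 62.0, 59.8 and 62.5 CPM in C/+ and 86.5, 69.0 and 78.3 CPM in WT. C/C lay above C/+ (log2FC 0.26, adjusted p = 0.223) and overlapped WT, and C/+ lay below WT (log2FC -0.34, SE 0.10, adjusted p = 0.0935). The derlins, which form the channel for retrotranslocation, gave log2FC over C/+ of 0.32 for Derl1, 0.15 for Derl2 and 0.48 for Derl3. Derl3 was scarce, at 3.17 and 3.47 CPM in C/C, 2.35, 2.94 and 1.82 CPM in C/+ and 2.59, 3.42 and 3.50 CPM in WT, and its SE of 0.29 was the largest of the degradation genes.

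The translocon subunits, through which new proteins enter the ER, were not called against C/+ by edgeR or DESeq2 (1 of 2 at an unadjusted p under 0.05, Sec61a1). Sec61b stood at 43.5 and 48.3 CPM in C/C, 39.8, 44.7 and 36 CPM in C/+ and 27.4, 32.1 and 31.3 CPM in WT. C/C and C/+ overlapped (log2FC 0.19, adjusted p = 0.433), and both lay above all WT libraries, by a log2FC of 0.60 for C/C (1.52-fold, SE 0.12, adjusted p = 0.0373) and 0.41 for C/+ (SE 0.11, adjusted p = 0.0745). The call of C/C against WT was kept in 2 of 8 fits that left out a library (adjusted p up to 0.258). Sec61a1, the pore subunit, stood at 267 and 236 CPM in C/C, 202, 225 and 186 CPM in C/+ and 226, 232 and 252 CPM in WT, with C/C overlapping WT (log2FC 0.30, adjusted p = 0.164 over C/+; 0.09 over WT).

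In the PERK and ATF4 arm, Ppp1r15a rose in C/C against both groups and Ddit3 against WT. Ppp1r15a (GADD34) encodes the phosphatase subunit that reverses eIF2 alpha phosphorylation. Its level was 256 and 194 CPM in C/C, 148, 108 and 117 CPM in C/+ and 76.1, 122 and 136 CPM in WT. Both C/C libraries were the highest of the 8, and C/+ and WT overlapped. The rise was 1.81-fold over C/+ (log2FC 0.85, SE 0.23, adjusted p = 0.0496) and 2.02-fold over WT (log2FC 1.02, SE 0.23, adjusted p = 0.0446), both close to the threshold. The first was lost without C/C 1, C/C 2, C/+ 2, C/+ 3 or WT 2 and the second without C/C 1, C/C 2, C/+ 2 or WT 2, with adjusted p of up to 0.385 and 0.325. It was also lost against C/+ with DESeq2 size factors.

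Ddit3 (CHOP), a transcription factor of prolonged ER stress, stood at 16.8 and 16.5 CPM in C/C, 12.1, 12.6 and 13.0 CPM in C/+ and 11.5, 9.96 and 11.8 CPM in WT. The 3 groups did not overlap and stood in that order. The log2FC was 0.58 over WT (1.49-fold, SE 0.14, adjusted p = 0.0491) and 0.41 over C/+ (SE 0.14, adjusted p = 0.115), and C/+ differed from WT by 0.17 (adjusted p = 0.482). Its call against WT was kept in 1 of 8 fits that left out a library. The call was also lost with sex as a covariate (edgeR adjusted p = 0.0601), with the compared groups alone (0.0501) and with a replicate block (0.101). Exons of Ddit3 overlap those of Mars on the other strand over 68 bases (3.97% of its exon length).

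Atf4 itself missed the threshold of the main edgeR fit in both comparisons and passed that of DESeq2. It was also called by edgeR in both with sex as a covariate or without the low-count filter. With the compared groups alone or without WT 1 it was called against C/+, and without C/+ 3 against WT. Atf4 stood at 309.9 and 268 CPM in C/C, 213, 193 and 167 CPM in C/+ and 142, 199.7 and 204 CPM in WT. C/C was above all other libraries (log2FC 0.60 over C/+ and 0.67 over WT, adjusted p = 0.0582 in each). The other ATF4 targets were scarce. Asns, the asparagine synthetase gene, stood at 14.8 and 14.0 CPM in C/C, 11.6, 12.4 and 12.3 CPM in C/+ and 10.3, 9.73 and 13.2 CPM in WT. Trib3, a pseudokinase gene induced downstream of CHOP, stood at 14.5 and 15.1 CPM in C/C, 11.2, 14.6 and 9.65 CPM in C/+ and 10.7, 13.1 and 10.4 CPM in WT. C/C lay above WT in both genes and overlapped C/+ in Trib3, with log2FC over C/+ of 0.25 and 0.32 (adjusted p = 0.423 and 0.382). Chac1, a glutathione-degrading enzyme gene that responds strongly to ATF4, stood at 1.10 and 0.860 CPM in C/C, 1.24, 0.560 and 0.765 CPM in C/+ and 0.801, 0.522 and 0.576 CPM in WT. It overlapped between C/C and C/+ (log2FC 0.18, SE 0.50, adjusted p = 0.891).

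**Figure D3:**
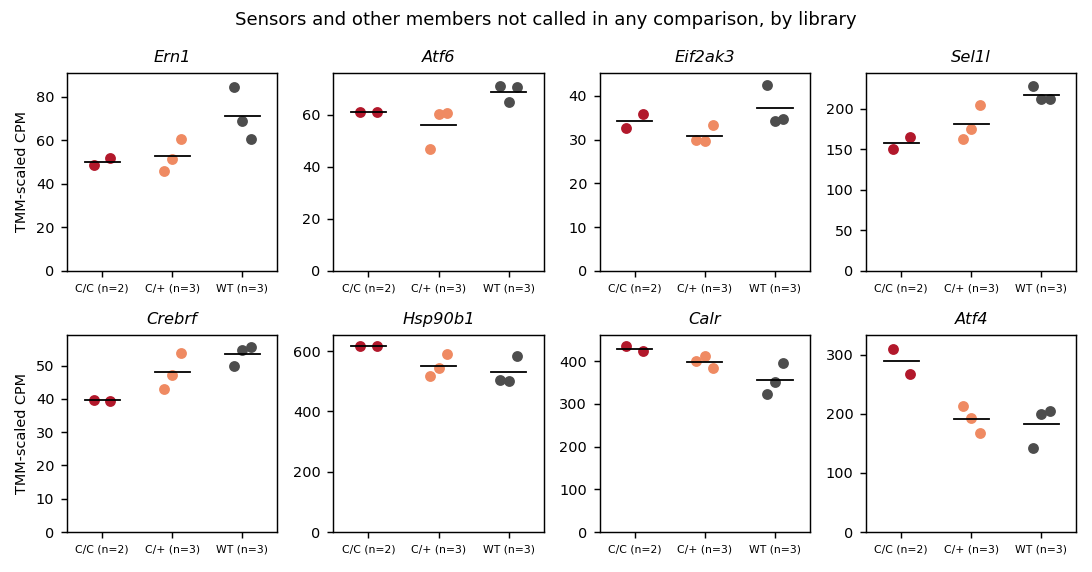
TMM-scaled CPM (y axis, from 0) of the 3 sensors and 5 other members that the main edgeR fit called in no comparison, by group (x axis: C/C, C/+, WT). Points are libraries and lines group means. In Ern1, Atf6, Sel1l and Crebrf the C/C points lie below all WT points, and Atf4 stands at 309.9 and 268 CPM in C/C, above the other 6 libraries.

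Set side by side, both arms had members called by the main edgeR fit in C/C, all of them higher. DESeq2 called 1 folding and degradation gene lower, Sel1l against WT, beside 6 higher in that comparison. The counts that follow are by edgeR unless DESeq2 is named. Of the 23 folding and degradation genes, 7 were called over C/+ (30.4%; 22 positive, median log2FC 0.32), and of the 6 PERK and ATF4 genes 1 was called (16.7%; 6 positive, median 0.36). Over WT the counts were 5 of 23 (19 positive, median 0.22) and 2 of 6 (6 positive, median 0.60). For C/+ against WT they were 0 of 23 (9 positive, median -0.08; 5 with p below 0.05 before adjustment and 2 by DESeq2) and 0 of 6 (6 positive, median 0.14; 0 with p below 0.05 before adjustment and 0 by DESeq2). Over all tested genes, the medians were -0.01, -0.03 and 0.00 and the shares called 7.08%, 2.98% and 3.92% in the same order of comparisons. For C/+ against WT, 3000 of all 14906 genes had p below 0.05 before adjustment, and DESeq2 called 8.47%.

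Library by library, the mean log2(CPM + 1) of the folding and degradation genes, taken relative to the 8-library mean of each gene, was 0.29 and 0.23 in C/C, -0.11, -0.12 and -0.13 in C/+ and -0.07, -0.11 and 0.02 in WT. That of the PERK and ATF4 genes was 0.43 and 0.29 in C/C, 0.04, -0.07 and -0.14 in C/+ and -0.32, -0.16 and -0.07 in WT. C/C was highest in both. In the folding genes the C/+ libraries lay at or below the lowest WT library, and in the PERK and ATF4 genes C/+ and WT overlapped. The PERK level minus the folding level, with each arm set to 0 at the WT mean, was 0.27 and 0.19 in C/C, 0.28, 0.19 and 0.12 in C/+ and -0.11, 0.08 and 0.04 in WT. The C/C libraries lay inside the C/+ range on this difference, and all 5 ChiaRed+ libraries lay above the 3 WT libraries. With 6 genes in 1 arm and libraries that differ in sort, this is a description without a test.

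Markers of other stress programmes moved with the same libraries. Of 15 tested immediate early genes, which respond within minutes to handling and growth signals, 7 were called higher in C/C against C/+, 2 against WT and 0 in C/+ against WT (0 with p below 0.05 before adjustment, 0 by DESeq2). Their summed level was 15912 and 12689 CPM in C/C, 4255 to 6974 CPM in C/+ and 3238 to 9266 CPM in WT. Of 14 cytosolic heat shock genes, 10 were called higher in C/C against C/+, 7 against WT and 0 in C/+ against WT (5 before adjustment, 1 by DESeq2). Their sums were 3836 and 2308 CPM in C/C, 1236 to 1264 CPM in C/+ and 1393 to 1943 CPM in WT. C/C 1, which was the higher C/C library for both sums, was also the higher for Hspa5, Dnajb9, Atf4 and Ppp1r15a, whereas C/C 2 was the higher for Herpud1 and Creld2. The part of these programmes in the members' levels was not tested.

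**Figure D4:**
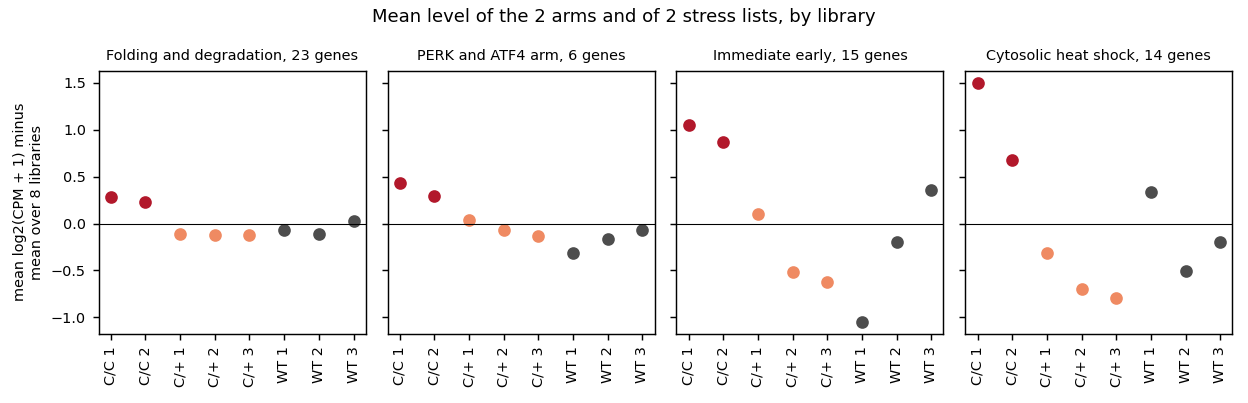
Mean log2(CPM + 1) of the genes of each list relative to each gene's mean over the 8 libraries (y axis), by library (x axis), for the folding and degradation genes, the PERK and ATF4 genes, the immediate early genes and the cytosolic heat shock genes. Both C/C libraries are the highest of the 8 in each panel, at 0.29 and 0.23 for folding and at 0.43 and 0.29 for the PERK and ATF4 genes.

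The cell types in the libraries differed too. Of 12 club cell markers, 9 were called lower in C/C against C/+ and 9 higher in C/+ against WT, with sums of 1580 to 1844 CPM in C/C, 6137 to 10782 CPM in C/+ and 1166 to 1944 CPM in WT. Of 12 endothelial markers, 12 were called lower in C/C against C/+ and 12 higher in C/+ against WT, with sums of 59.7 to 68.8 CPM in C/C, 595 to 1003 CPM in C/+ and 75.8 to 307 CPM in WT. Mesothelial markers (7 of 8) and mesenchymal markers (6 of 10) were also called lower in C/C against C/+. Alveolar type 2 markers were called by edgeR in none of the 3 comparisons (0 of 12; with p below 0.05 before adjustment, 1 for C/C over C/+, 5 for C/C over WT and 3 for C/+ over WT; by DESeq2 0, 4 and 2). Their sums were 296588 to 303408 CPM in C/C, 260515 to 272768 CPM in C/+ and 221303 to 253714 CPM in WT. The part of these cells in the members' levels was not tested. Plasma and B cell markers summed to 600 to 725 CPM in C/C, 492 to 668 CPM in C/+ and 610 to 855 CPM in WT. Most of this was Sdc1, which epithelial cells also express, at 564 to 683 CPM in C/C, 455 to 619 CPM in C/+ and 580 to 752 CPM in WT. Of the 8 tested markers, edgeR called 0 in any comparison (0 in C/C against C/+, 2 in C/C against WT and 2 in C/+ against WT with p below 0.05 before adjustment), and DESeq2 called 1, Igkc, lower in C/C against WT. Igha was at 0 CPM in both C/C libraries and Jchain at 0.184 and 0.235 CPM. In WT 2, Igha stood at 54.8 CPM and Jchain at 7.02 CPM. The part of plasma cells in the members' levels was not tested.

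Levels between genes were compared per kb of merged exon. In C/C, Herpud1 had the highest level of the 36, at 243 ± 19.4 CPM per kb (SD, n = 2), against 99.5 ± 7.80 in C/+ and 88.2 ± 7.20 in WT (SD, n = 3 each). Hspa5 followed at 159 ± 20.1 in C/C, 103 ± 9.92 in C/+ and 109 ± 9.43 in WT. In WT the leading member was Hsp90b1, at 153 ± 0.237 CPM per kb in C/C, 137 ± 9.04 in C/+ and 131 ± 11.6 in WT. Calr (149 ± 2.55 in C/C, 139 ± 4.72 in C/+, 124 ± 13.0 in WT) and Pdia3 (138 ± 7.88 in C/C, 133 ± 9.54 in C/+, 121 ± 13.0 in WT) did not differ from Hsp90b1 beyond these spreads in WT. The Herpud1 mean thus stood below those 3 in C/+ and WT and above them in C/C, while in C/+ it was within the spread of Hspa5. Atf4 had 123 ± 12.6 CPM per kb in C/C, 81.1 ± 9.76 in C/+ and 77.2 ± 14.6 in WT, the highest of the PERK arm. Chac1 was the lowest member, at 0.599 ± 0.104 CPM per kb in C/C, 0.522 ± 0.213 in C/+ and 0.387 ± 0.0905 in WT.

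**Figure D5:**
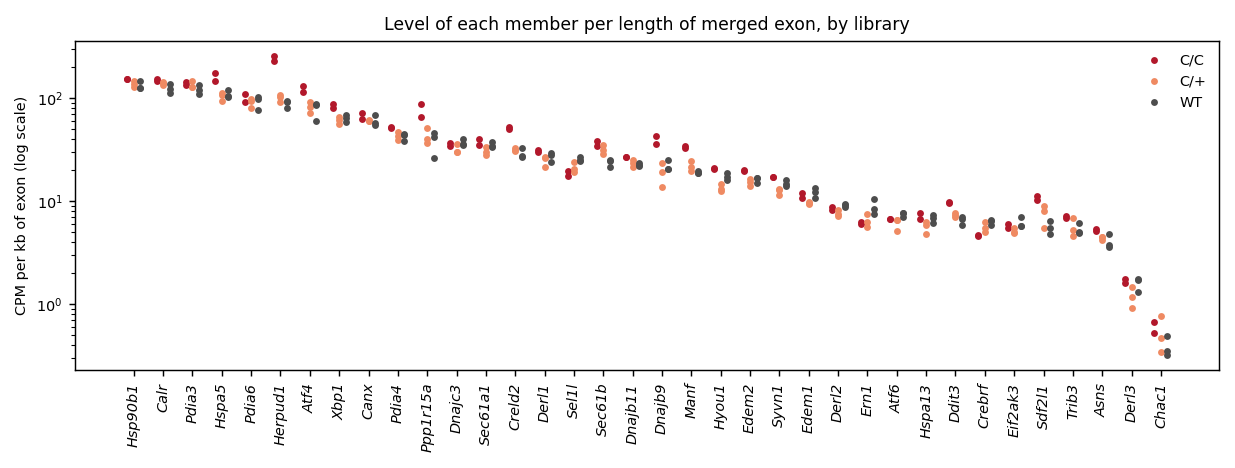
CPM per kb of merged exon (y axis, log scale) of the 36 members, ordered from left to right by their WT level; each point is a library of C/C, C/+ or WT. In C/C, Herpud1 averages 243 CPM per kb and stands above the 5 members that lead it in WT.

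Genes of the same pathways outside the 36 showed fewer calls. Of 112 such genes, 109 were tested, and 6 were higher and 1 lower in C/C against C/+, with a median log2FC of 0.17. In either direction this is 6.42%, against 7.08% of all genes. By direction, 6 of the 7 calls were higher, whereas 24.7% of the calls over all genes were. Of all tested genes, 1.75% were called higher and 5.33% lower. Of 20 further folding and glycosylation genes, edgeR called 0 (DESeq2 1, and 2 at an unadjusted p under 0.05). The most abundant of them, P4hb, another disulfide isomerase gene, stood at 707 and 649 CPM in C/C, 626, 655 and 574 CPM in C/+ and 573, 643 and 695 CPM in WT (log2FC 0.13, adjusted p = 0.593 over C/+). Of 16 further degradation genes, 0 were called (DESeq2 called 2, and 3 had an unadjusted p under 0.05), and the most abundant, the lectin gene Os9, had a log2FC of 0.19 (adjusted p = 0.332). Of 20 genes of translocation and vesicle export 1 was called, Sec23b, a coat subunit of ER export vesicles (log2FC 0.55, adjusted p = 0.0170). Of 15 stress transcription factors and regulators, 3 were called: Nfe2l2, the oxidative stress factor NRF2 (log2FC 0.58, adjusted p = 0.0429), and Atf6b, the relative of Atf6 (0.43, adjusted p = 0.0239), were higher, and Eif2ak2, the eIF2 alpha kinase PKR, was lower (-0.57, adjusted p = 0.0148).

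Further genes known as ATF4 targets were also called. Of 14 tested ATF4 transcription and stress genes, 2 were called higher in C/C against C/+, with a list median log2FC of 0.48. This is 14.3%, against 1.75% of all genes called higher and 7.08% called in either direction. Against WT, 3 were called higher, with a median of 0.46. This is 21.4%, against 1.62% of all genes called higher and 2.98% called in either direction. In each of these comparisons 8 of the 14 had p below 0.05 before adjustment and DESeq2 called 4, all higher. Atf3, which was also on the immediate early list, was 1 of the 4 against C/+. Sesn2, a stress sensor that restrains mTORC1, stood at 54.8 and 55.6 CPM in C/C, 25.7, 32.4 and 30.2 CPM in C/+ and 32.2, 27.9 and 29.8 CPM in WT. Its C/C libraries were clear of the others (log2FC 0.91, SE 0.12, adjusted p = 0.00228 over C/+; 0.88, adjusted p = 0.00842 over WT). Gdf15, a secreted stress cytokine gene, stood at 15.9 and 22.2 CPM in C/C, 8.19, 5.88 and 6.76 CPM in C/+ and 3.75, 8.68 and 9.74 CPM in WT, again with C/C highest (log2FC 1.45, adjusted p = 0.0271 over C/+). Of 24 tested amino acid genes, edgeR called 1 higher in C/C against C/+ and 0 against WT. The first is 4.17%, against 1.75% of all genes called higher and 7.08% called in either direction. At an unadjusted p under 0.05 there were 7 and 5 of the 24, against 3116 and 3299 of all 14906 genes. DESeq2 called 2 and 1, all higher, against 10.8% and 9.9% of all genes in either direction. The edgeR call was Cth, the cystathionine lyase gene (log2FC 0.96, adjusted p = 0.0270 over C/+). Cth stood at 43.2 and 41.3 CPM in C/C, 17.6, 25.9 and 21.8 CPM in C/+ and 30.6, 17.5 and 20.7 CPM in WT. Against WT, 3 of the 109 genes were called higher in C/C, Sesn2, Cebpb and Nupr1 (2.75%, against 1.62% of all genes called higher). In C/+ against WT, 1 was called higher, Nupr1 (0.917%, against 3.42% of all genes called higher). These were named after their values were seen.

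The promoter letters can be set beside the counts. Window genes were matched to tested genes by symbol, and 17 of 37 genes with an ERSE in a window were matched. Of these, 4 were higher and 1 lower in C/C against C/+, with a median log2FC of 0.16. Over all 11122 genes matched this way the share called was 6.87% and the median 0.00. The 3 members among the calls were Creld2, Hspa5 and Syvn1, while the other 6 members with ERSE (Calr, Canx, Derl3, Dnajc3, Hsp90b1 and Pdia6) were not called. Outside the members, 8 genes with ERSE were matched, with a median log2FC of -0.39. Of these, Hnrnpa3 was called higher and Acacb lower, both named after their values were seen. The match missed Ero1b, which the counts carry under its older symbol Ero1lb. Ero1lb was tested and not called (log2FC 0.39, adjusted p = 0.423 over C/+), and the ERSE counts and medians given here leave it out. Of the members with ERSE-II, Herpud1 was called and Dnajb11 was not. Asns, Trib3 and Chac1, the PERK and ATF4 genes with the ATF4 core, were not called, and Ppp1r15a, which was, had none of the searched letters in its window.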

How the data were processed

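RNA of sorted EpCAM+CD45- lung cells was extracted with a column kit and DNase and made into stranded mRNA libraries, per the labels' protocols. The authors deposited 1 table of counts: whole-number reads per Ensembl gene, not normalised, for 8 libraries. The submitters' processing notes name STAR 2.4.2a, DESeq2 and the human build GRCh38 without roles, although the identifiers are mouse; the sources used here give neither the counter, nor its strand setting, nor the annotation. Columns were matched to samples by genotype and replicate number in their names. Symbols, positions and merged exon lengths came from GENCODE M21 (GRCm38), which named 42462 identifiers and left 970 without a symbol, and promoter windows came from RefSeq.

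Genes were filtered with filterByExpr, libraries scaled by TMM (0.915 to 1.06), and the 3 group means were estimated over all 8 libraries in 1 quasi-likelihood model (edgeR 4.0.16 under R 4.3.3) with two-sided F tests. Totals of 17057216 to 52319957 counts make counting error small above a few CPM. The members and all gene lists were chosen with earlier results of these data known, so no list has a test of its own. Outside the members, up to 3 called genes of each list with the highest CPM are named, or the most abundant gene where none was called. Replicates of a group differed beyond sampling noise (chi-square per gene 12.2 to 74.2). The model was checked on simulated data. Results were recomputed leaving out each library, with a replicate block, with sex (read from Xist and Y-linked counts) as a covariate, on just the groups compared, with size factors or the Wald test of DESeq2 1.42.0, and with no filter or one of 1 CPM in 5 libraries. Proteins were not analysed here.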

Additional observations from a re-analysis of the deposited data

How the results depend on the processing

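The number of members called between C/C and C/+ (9) was 5 with a replicate block and 1 to 11 when a library was left out, and 7 to 11 under the other settings. Between C/C and WT (8) it was 14 by DESeq2's Wald test, 13 without a low-count filter, 3 with the block and 1 to 12 with a library left out. Between C/+ and WT (0) it was 4 by DESeq2, 3 without the filter, 6 with sex as a covariate and 0 to 1 with a library left out. Over all genes, calls between C/C and C/+ (1056) numbered 1609 by DESeq2, 1614 without the filter and 185 to 1308 with a library left out. Between C/C and WT (444) they numbered 1476 by DESeq2, 1456 without the filter, 176 with the block, 1348 with sex and 30 to 782 with a library left out. Between C/+ and WT (585) they numbered 1263 by DESeq2, 1299 without the filter, 356 with the compared groups alone, 1700 with sex and 103 to 729 with a library left out, and the share of these called higher was 87.2%, against 72.4% by DESeq2, 72.7% without the filter and 61.6% with sex. Between C/C and WT 54.3% of calls were higher, against 41.7% without the filter and 41.5% with the block. Median log2FC with a library left out ranged from 0.35 to 0.48 for the PERK and ATF4 genes in C/C against C/+, from 0.50 to 0.68 against WT and from 0.037 to 0.25 in C/+ against WT, and for the folding and degradation genes from -0.15 to -0.0026 in C/+ against WT. The causes were not tested. Of 255 refitted log2 fold changes of called members, 183 stayed called, 72 kept their sign without the call and 0 reversed.

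The replicate block lost Xbp1, Hspa5, Syvn1 and Ppp1r15a in C/C against C/+ and Dnajb9, Sdf2l1, Sec61b, Ddit3 and Ppp1r15a in C/C against WT. Deviations of same-numbered libraries from their group means correlated at -0.33 to 0.21, and those of differently numbered libraries at -0.25 to 0.26. In groups this small the centring itself fixes part of these values, so they cannot decide whether the numbers pair libraries. With 2 C/C libraries, a fit that leaves 1 of them out assumes that the other varies like the other groups. Depth limits Chac1 and Derl3, and no scaling moved the median of all genes by over 0.1.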
